A study of Homo sapiens with 4 samples.

Results

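Cadherins and genes of the mesenchymal state were examined in the MDA-MB-231 cell line, which derives from human breast cancer, has a mesenchymal appearance and lacks hormone receptors, after exposure to recombinant human LRG1 (rhLRG1). Of 7 genes chosen by name (CDH1, CDH2, CDH5, CDH13, VIM, FN1 and SPOCK1), 5 were found on the array, with 6 probes and 12 spots among 1856 gene probes and 3786 gene spots. CDH1 and FN1 had no probe under their names and were not analysed here. The tested cells received rhLRG1 at 100 ng/mL for 24 h (2 samples, replicates 2 and 3), and the untreated cells were kept in RPMI medium (2 samples, the same replicate numbers). By their titles and array names, samples of one number were hybridised together on a 2-colour array, although the free-text description of the rhLRG1 sample titled 3 repeats that of the sample titled 2. Labelling was the same on both arrays, with treated cDNA always in Alexa 647 and untreated cDNA always in Alexa 555, so treatment and dye cannot be told apart.

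Cadherins are calcium-dependent adhesion proteins that join neighbouring cells and, through catenins, connect to the actin cytoskeleton. In epithelial-mesenchymal transition (EMT), carcinoma cells lose E-cadherin (CDH1), gain N-cadherin (CDH2), and express vimentin and matrix proteins. LRG1 is a secreted leucine-rich glycoprotein known for its part in vessel growth and TGF-beta signalling.

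The members did not move in one direction. SPOCK1, which encodes a secreted proteoglycan linked to invasion, gave the lowest ratio among them, carried mainly by one of its spots. After loess normalization, 1 of the CDH2 probes gave a higher ratio in rhLRG1-treated cells while the other was near 0. CDH13 was called higher on a signal barely above background, CDH5 was lower on both arrays without being called, and VIM went opposite ways on the arrays. A probe was called where its Z ratio, the difference of the channels' standardised log intensities scaled by the spread over all probes, passed 1.5 in either direction. By this rule 3 of 6 member probes were called, 2 higher and 1 lower, against 13.4% of all probes (248 of 1856, with 6.73% called higher and 6.63% called lower). The Z ratio carries no p-value. No member passed limma's moderated test at an adjusted p of 0.05 (Benjamini-Hochberg), nor did any of the 1856 probes (0%). At an unadjusted p of 0.05, 433 probes passed (23.3%), among them 2 member probes.

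Signals differed between the channels before normalization. The median spot stood 5.69-fold (replicate 2) and 4.57-fold (replicate 3) over its local background in the rhLRG1 channel, against 11.8-fold and 8.71-fold in the untreated channel. Spots under 1.5-fold made up 10.1% and 14.8% of the rhLRG1 channel, against 1.64% and 1.77% of the untreated channel. Without normalization the median log2 ratio of treated over untreated was −0.31, and loess normalization brought it to −0.0061. Ratios below are those after normalization, and raw intensities are not comparable between dyes. All 7 leukocyte marker probes, whose genes these cells should not express, had mean log2 brightness of 6.90 to 11.8, so a signal above background was not read as presence of a transcript.

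The background correction of replicate 3 was moved by a few spots. On this array, 2 neighbouring spots that belong to no member had local backgrounds of up to 3443 in the rhLRG1 channel and 5345 in the untreated channel, where the array medians were 70.4 and 48.9. These entered the background model of the whole array and moved its fitted mean to −115 and −58.2. With them the SD of all log2 ratios was 0.125 on replicate 3 and 0.207 on replicate 2, and without them 0.206 and 0.207. With the 2 spots left out, a choice made after seeing the data, 404 probes passed limma's adjusted test (21.8%), and 4 of 6 member probes were among them, while 687 probes passed at an unadjusted p of 0.05 (37%). Z ratio calls then numbered 217 (11.7%) and still included 3 member probes. The members' values are given both ways.

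N-cadherin (CDH2) was represented by 2 probes that gave different results after loess normalization. For the probe X54315, foreground intensities in the rhLRG1 channel were 499.9 and 720 on replicate 2 and 800 and 894 on replicate 3, against 460 and 656 and then 736 and 885 in the untreated channel. Its log2 ratios were 0.46 on replicate 2 and 0.30 on replicate 3, and all 4 spot ratios lay above 0 (0.24 to 0.49). The mean was 0.38 (1.30-fold, SE 0.066, 95% confidence interval 0.21 to 0.54, limma adjusted p = 0.143), with a Z ratio of 2.34 that called it higher. Without the 2 bright-background spots, the mean was 0.39 (adjusted p = 0.0146) and the Z ratio 1.86. With no normalization the mean was 0.10 (adjusted p = 0.669), and with median centring in place of loess it was 0.41 (adjusted p = 0.263).

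The other CDH2 probe, NM_001792, was bright on every spot. It read 6329 and 4401 on replicate 2 and 4785 and 2705 on replicate 3 in the rhLRG1 channel, against 6546 and 4700 and then 4920 and 2923 in the untreated channel. Its log2 ratios were −0.022 and −0.037 (mean −0.029, SE 0.057, 95% confidence interval −0.17 to 0.11, adjusted p = 0.776), and its Z ratio was −0.36. Without the 2 bright-background spots the mean was −0.025 (adjusted p = 0.741) and the Z ratio −0.26. With no normalization the mean was −0.066 (adjusted p = 0.795), and with median centring in place of loess it was 0.24 (adjusted p = 0.267). Under median centring the means of both CDH2 probes were thus above 0. With loess, the intervals of the CDH2 probes did not overlap. The oligonucleotide sequences were not in the tables used here, so which stretch of CDH2 each probe reads was not analysed here.

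**Figure D1:**
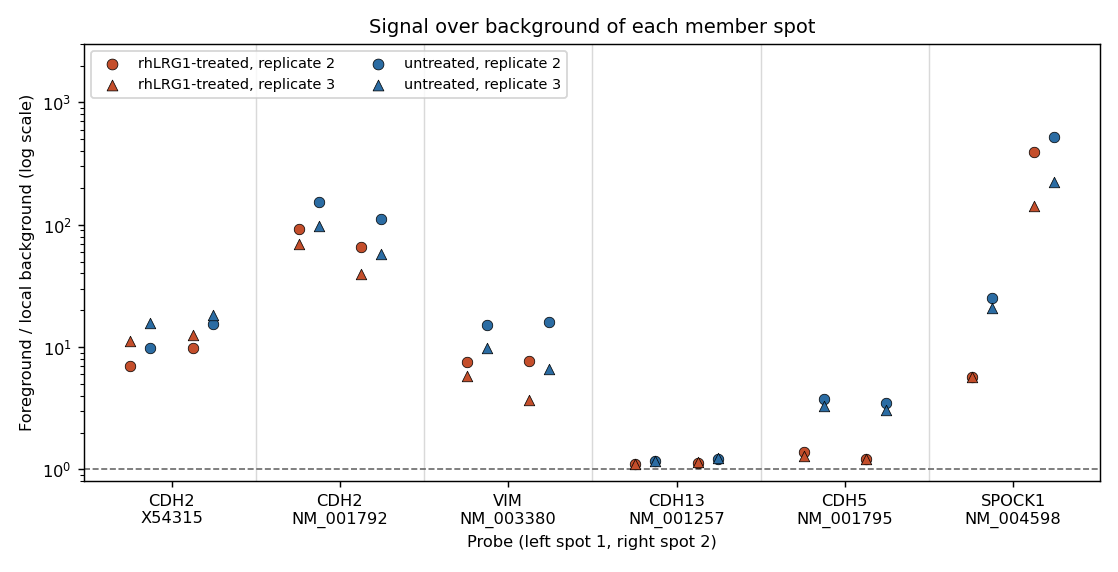
Foreground over local background (log axis) of the 12 member spots, with rhLRG1-treated samples left of untreated samples within each spot and the dashed line at the background itself. CDH13 lies at 1.11 to 1.24 in all 4 samples, and the SPOCK1 spots lie far apart.

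CDH5, or VE-cadherin, forms the adherens junctions of endothelial cells, and its probe was dim. In the rhLRG1 channel it read 98.6 and 86.7 on replicate 2 and 92.9 and 86.2 on replicate 3, 1.22 to 1.38 times background, against 162 and 149 and then 160 and 143 in the untreated channel, 3.04 to 3.77 times background. The log2 ratios were −0.35 on replicate 2 and −0.062 on replicate 3 (mean −0.20, SE 0.083, 95% confidence interval −0.41 to 0.0061, adjusted p = 0.226), and the Z ratio of −1.16 did not call it. Leaving out the 2 spots gave −0.25 on replicate 3, a mean of −0.30 (adjusted p = 0.0211) and a Z ratio of −1.42. All 4 spot ratios were below 0 both with and without those spots. The mean was −0.75 (adjusted p = 0.00156) with no normalization, −0.53 (adjusted p = 0.0105) with plain background subtraction and −0.44 (adjusted p = 0.267) with median centring. Of 7 other endothelial marker probes none was called by Z ratio, against 13.4% of all probes. Limma without the 2 spots passed 2 of these 7, against 21.8% of all probes, and both were higher: FLT4 (0.22, adjusted p = 0.0370) and ANGPT2 (0.19, adjusted p = 0.0485). The ANGPT2 spots lay at 1.18 to 3.18 times background. With median centring and all spots in the fit, ratios were −0.033 for ANGPT2 and 0.14 for FLT4.

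CDH13, or T-cadherin, is held in the membrane by a lipid anchor and has no catenin-binding tail. Its foreground in the rhLRG1 channel was 79.1 and 79.2 on replicate 2 and 77.7 and 80.1 on replicate 3, over local backgrounds of 69.5 to 71.0. In the untreated channel it was 50.3 and 54.0 and then 56.4 and 59.9, over backgrounds of 43.1 to 48.3. The probe was therefore at most 1.15 times background in treated cells and 1.24 times in untreated cells, though every spot was at least 3.47 background SDs above it.

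The CDH13 log2 ratios were 0.33 on replicate 2 and 0.054 on replicate 3 (mean 0.19, SE 0.083, 95% confidence interval −0.015 to 0.40, adjusted p = 0.239), and its Z ratio of 3.22 called it higher. Leaving out the 2 bright-background spots gave 0.29 on replicate 3, a mean of 0.31 (adjusted p = 0.0166) and a Z ratio of 3.94. Without normalization the mean was −0.017, and with plain background subtraction it was 1.57. Z ratios taken from normalized channels did not call it, at 0.51 with print-tip loess and 1.30 with loess.

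VIM encodes vimentin, the intermediate filament protein of mesenchymal cells. Its spots read 505 and 526 on replicate 2 and 397 and 249 on replicate 3 in the rhLRG1 channel, against 666 and 716 and then 479 and 325 in the untreated channel. The log2 ratio was −0.10 on replicate 2 and 0.085 on replicate 3, each sign shared by both spots of the array. The mean was −0.0094 (SE 0.070, 95% confidence interval −0.19 to 0.17, adjusted p = 0.945) and the Z ratio 0.22. The mean was 0.0058 (adjusted p = 0.959) without the 2 spots.

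**Figure D2:**
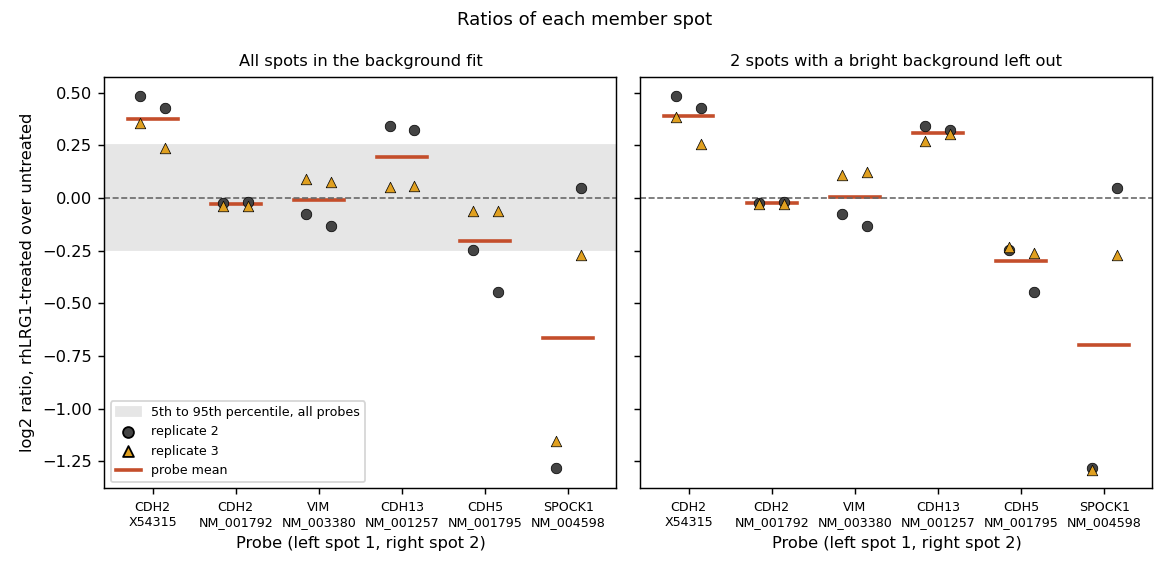
Normalized log2 ratio of rhLRG1-treated over untreated cells for each member spot on each array, with all spots in the background fit (left) and with 2 spots of bright local background left out (right), where the line marks the probe mean. On replicate 3 the CDH13 mean ratio was 0.054 in the left panel and 0.29 in the right panel.

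SPOCK1 had the largest change among the members and the second largest of all 1856 probes by size. Its log2 ratios were −0.62 on replicate 2 and −0.71 on replicate 3 (mean −0.66, 0.631-fold, SE 0.060, 95% confidence interval −0.81 to −0.51). The unadjusted p was 6.7e-05 and the adjusted p 0.124, the smallest of any probe, and the Z ratio was −4.01. Without the 2 bright-background spots, the mean was −0.70 (adjusted p = 0.0101) and the Z ratio −2.86. With median centring the mean was −0.40 (adjusted p = 0.263).

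This ratio averaged spots that did not behave alike. The first spot read 393 and 399 in the rhLRG1 channel on replicates 2 and 3, against 1158 and 1173 in the untreated channel, and its log2 ratios were −1.28 and −1.15. The second spot read 27137 and 10153 in the rhLRG1 channel, against 22985 and 11253 in the untreated channel, and its log2 ratios were 0.046 and −0.27. Both spots carry the same name and accession.

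The SPOCK1 spots differed 23.2-fold in brightness, the second largest gap among 1849 probes with 2 spots. Their ratios differed by 1.10 on the log2 scale, the largest gap of all, where the median gap was 0.058 and 95% of probes were under 0.19. The second spot alone gave a mean of −0.11 and a Z ratio of −0.89, which is no call, and the first alone gave −1.21. The 4 spots adjacent to the first had log2 ratios of −0.027 to 0.23 on replicate 2 and −0.12 to 0.014 on replicate 3. Spots more than 4-fold apart in brightness occurred in 59 probes (3.19%), and 11 of these were called (18.6%, against 13.4% of all probes). Whether both spots hold the SPOCK1 oligonucleotide was not tested.

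**Figure D3:**
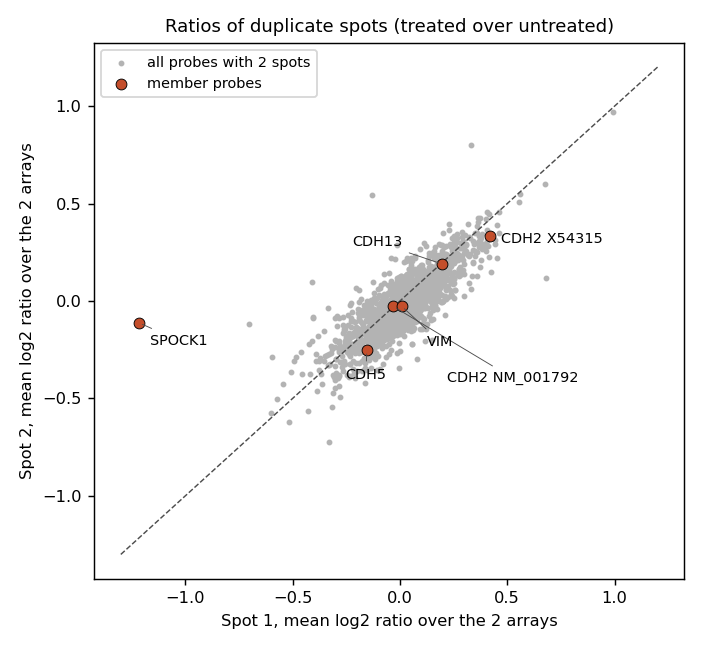
Mean log2 ratio (rhLRG1-treated over untreated, 2 arrays) of spot 1 against spot 2 for 1849 probes, with the members in red and the line of equality dashed. SPOCK1 lies at −1.21 and −0.11, the largest departure from the line, while the other members lie near it.

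The spots of the other members lay closer together than those of SPOCK1. The CDH2 probe NM_001792 had a ratio gap of 0.0031 between its spots, CDH13 of 0.0066, VIM of 0.036, the CDH2 probe X54315 of 0.086 and CDH5 of 0.099, the last pair above the median gap of all probes. On replicate 2 the CDH5 spots differed by 0.20, as much as the size of its mean ratio. Their brightness differed by 1.02-fold for CDH13 to 1.56-fold for the CDH2 probe NM_001792. Across all probes with 2 spots the ratios of the spots correlated at 0.82, a description across genes from shared arrays.

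Other genes of adhesion were read beside the members. Of 11 other cadherins and desmosomal cadherins, 1 was called lower and none higher (9.09%, against 13.4% of all probes). This was DSC3, a desmosomal cadherin, with a mean log2 ratio of −0.23 (Z ratio −1.58, adjusted p = 0.229) and spots at 1.30 to 4.07 times background. PCDH7, a protocadherin, had a ratio of 0.21 and was not called. Limma without the 2 bright-background spots passed 3 of the 11, against 21.8% of all probes. These were CDH17, the cadherin of liver and intestine (0.31, adjusted p = 0.0166), PCDH7 (0.28, adjusted p = 0.0208) and, in the other direction, DSC3 (−0.29, adjusted p = 0.0466). With all spots in the fit, the CDH17 spots gave mean ratios of 0.33 and 0.061, at 1.27 to 3.55 times background. The PCDH7 spots gave 0.18 and 0.24 but differed by 2.86 in log2 brightness. CDH3, the P-cadherin of basal epithelium, gave −0.045. The list median was 0.088, against −0.0061 over all probes, and it turned to −0.16 with median centring in place of loess. That centring also gave ratios of −0.014 for CDH17, 0.15 for PCDH7 and −0.51 for DSC3.

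None of 6 catenins and junction partners was called, against 13.4% of all probes, with a median of 0.041 that turned to −0.044 with median centring. AFDN, the junction scaffold afadin, gave 0.15 and NECTIN2, a nectin adhesion receptor, gave −0.12. None of 8 epithelial marker probes was called either. EPCAM, an epithelial adhesion molecule, gave 0.18 with array values of 0.33 and 0.038, and the protease gene ST14 gave −0.13. Neither list had a probe past limma without the 2 bright-background spots, against 21.8% of all probes. Lists of 6 and 8 probes were not tested against these shares.

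Among 18 probes for mesenchymal markers and EMT regulators, 3 were called higher (16.7%) and none lower, where 6.73% of all probes were called higher. AXL, a receptor tyrosine kinase of the mesenchymal state, had log2 ratios of 0.49 and 0.35 (mean 0.42, Z ratio 2.33, adjusted p = 0.143). SMAD2, a mediator of TGF-beta signalling, had 0.54 and 0.25 (mean 0.40, Z ratio 1.98, adjusted p = 0.143). LEF1, a transcription factor of the Wnt pathway, had 0.14 and 0.31 (mean 0.23, Z ratio 1.54, adjusted p = 0.160). With the 2 spots left out, AXL and SMAD2 stayed called and LEF1 did not (Z ratio 1.29). Limma then passed 3 of the 18 in the upward direction, against 21.8% of all probes in either direction: AXL (0.49, adjusted p = 0.0109), SMAD2 (0.61, adjusted p = 0.0101) and SMAD3, another TGF-beta mediator (0.21, adjusted p = 0.0457). With median centring in place of loess and all spots in the fit, ratios were 0.29 for AXL, 0.19 for SMAD2, 0.21 for LEF1 and 0.017 for SMAD3.

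Epithelial and mesenchymal genes were then set side by side. The 9 epithelial probes, CDH3 included, had a median log2 ratio of 0.0045 (0.058 on replicate 2 and −0.033 on replicate 3), with 5 above 0 and none called. The 21 mesenchymal probes included CDH2, VIM and EMT regulators such as SMAD2 and LEF1. Their median was 0.071 (0.088 and 0.040), with 14 above 0. Of the 21, 4 were called higher and none lower, where 6.73% of all probes were called higher and 6.63% lower. LEF1, 1 of the 4, lost its call with the 2 bright-background spots left out (Z ratio 1.29). SPOCK1 and the desmosomal cadherin DSC3, both called lower, were in neither set, so the counts of lower calls leave them out. The desmosomal cadherins DSG2 and DSG3, and SPARC, listed with the matrix genes, were also in neither set. Over all probes the median was −0.0061, with 892 of 1856 above 0. With median centring the medians were 0.065 for epithelial and 0.094 for mesenchymal probes. The difference between the sets was not tested.

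**Figure D4:**
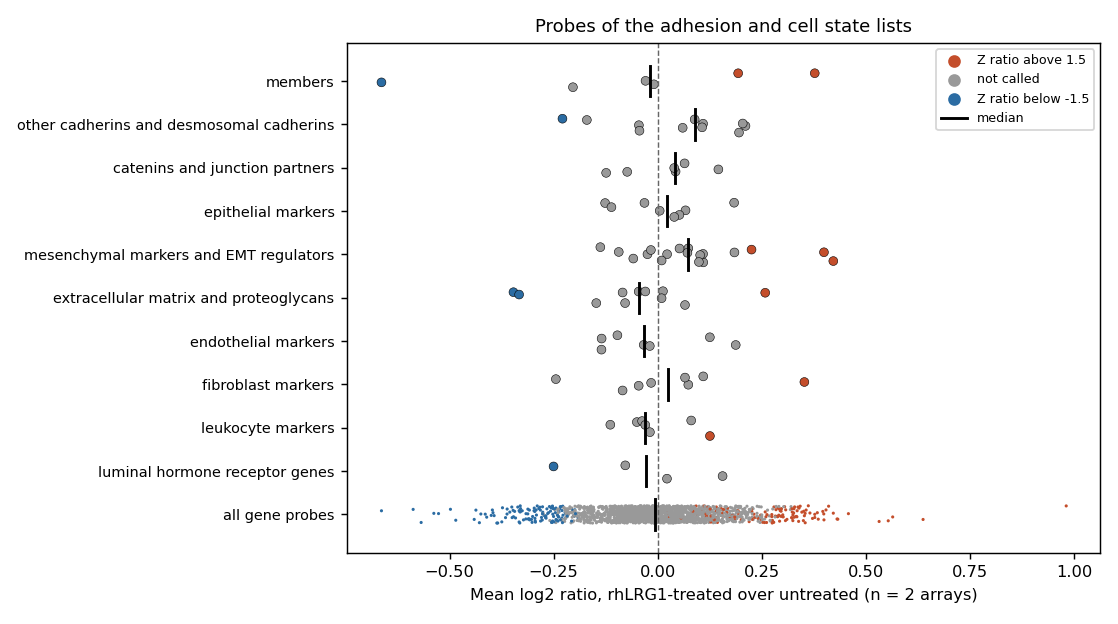
Mean log2 ratio of rhLRG1-treated over untreated cells (2 arrays) for the member probes, 9 gene lists and all gene probes, coloured by Z ratio call, with the median as a bar. The mesenchymal list holds 3 of 18 probes called higher (16.7%) and none lower, and none of the 8 probes in the epithelial list is called. Over all probes, 6.73% were called higher and 13.4% in either direction. LEF1, 1 of the 3, lost its call with the 2 bright-background spots left out (Z ratio 1.29).

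Matrix genes went both ways. Of 11 probes for matrix proteins and proteoglycans, 1 was called higher and 2 lower (27.3%, against 13.4% of all probes), with a median of −0.046. SPP1, encoding osteopontin, gave 0.26 (Z ratio 1.62), the laminin chain gene LAMB1 gave −0.35 (Z ratio −2.23) and VTN, encoding vitronectin, gave −0.33 (Z ratio −2.08). Once the 2 spots were left out, SPP1 was not called by Z ratio (1.34). Limma then passed 3 of the 11, against 21.8% of all probes. These were SPP1, higher (0.28, adjusted p = 0.0369), LAMB1, lower (−0.53, adjusted p = 0.0101), and VTN, lower (−0.47, adjusted p = 0.0120). The LAMB1 spots lay at 1.24 to 4.54 times background.

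The fibroblast, leukocyte and luminal lists each held 1 called probe among 4 to 8, against 13.4% of all probes. Of 8 fibroblast marker probes, FAP, a protease of activated fibroblasts, was called higher (0.35, Z ratio 2.36), and the receptor gene PDGFRA gave −0.24 without a call. Of 7 leukocyte marker probes, the T cell receptor component CD3G was called higher (0.13, Z ratio 2.38), and MS4A1 gave −0.11. The CD3G spots were dim, at 1.04 to 1.98 times background, and net intensities gave CD3G a Z ratio of 0.86, which is no call. Of 4 luminal hormone receptor genes, PGR, the progesterone receptor, was called lower (−0.25, Z ratio −1.60), and the estrogen-responsive TFF1 gave 0.16. The PGR spots lay at 1.26 to 6.92 times background. Of the endothelial probes, FLT4 gave 0.19 and ICAM2 gave −0.14. Without the 2 spots, limma passed 2 of 8 fibroblast, 1 of 7 leukocyte and 1 of 4 luminal probes, against 21.8% of all probes. These were FAP (0.39, adjusted p = 0.0312), PDGFRA (−0.28, adjusted p = 0.0200), CD3G (0.21, adjusted p = 0.0376) and PGR (−0.36, adjusted p = 0.0135).

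The probes nearest to each called member over the 2 arrays' log2 ratios were sought. CDH2 probe X54315 lay nearest to VAV1, SLC22A4 and KDM5B, at Euclidean distances of 0.012 to 0.062. CDH13 lay nearest to RPL22, EPCAM and STK11, at 0.013 to 0.019. SPOCK1 stood farther from its neighbours TFG, CSF2RB and SNRPD3, at 0.19 to 0.38. Several of these places depended on the 2 bright-background spots. Without them EPCAM was at rank 272 from CDH13 (distance 0.24), STK11 at rank 84, and VAV1 at rank 247 from CDH2 probe X54315. RPL22 was at rank 3 from CDH13 and CSF2RB at rank 2 from SPOCK1. With 2 arrays this likeness is a description only.

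**Figure D5:**
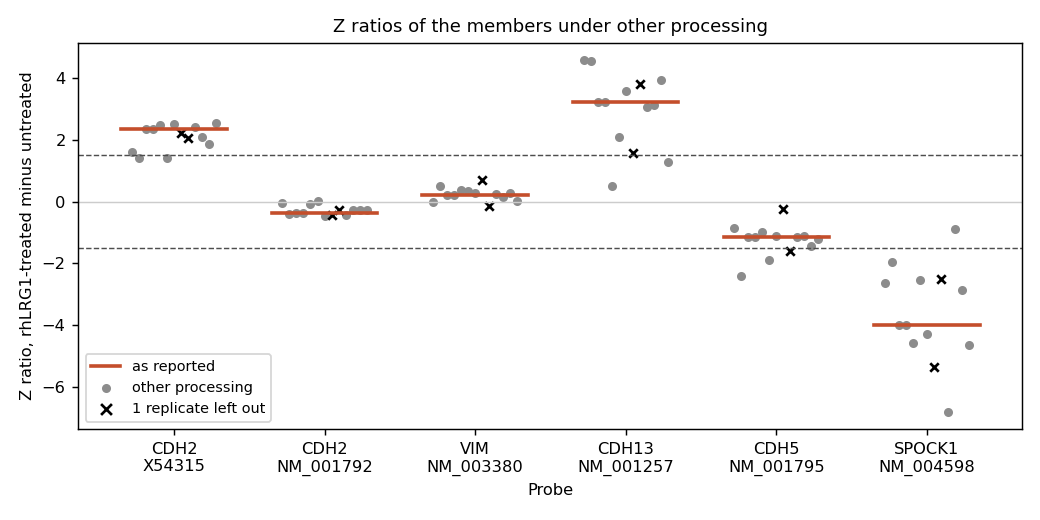
Z ratios of the 6 member probes as reported (line), under other processing (points) and with 1 replicate left out (crosses), with dashed lines at the threshold of 1.5 in each direction. The CDH2 probe NM_001792 and VIM stay inside the lines under every setting drawn, and SPOCK1 passes the lower line under every one except its second spot alone (−0.89).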

How the data were processed

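The authors deposited scanner foreground, local background and the SD of the local background per spot as an unnormalized signal. Replicate 2 and replicate 3 of each group were on one array each. Net intensity was deposited too, but for member spots of the rhLRG1 channel it was not foreground minus background. On replicate 2 it was 594 over a foreground of 499.9 for the first X54315 spot. For the second SPOCK1 spot it was 25029, under a foreground of 27137. In the untreated channel the same X54315 spot had 413, which is 460 less a background of 47.0. How the rhLRG1 net values were made was not tested. Per the paper's methods, GenArise and a Z-score filter at 1.5 were used. R 4.2.2 is listed in the submitters' processing notes. The deposited ratio columns hold the authors' own comparison and were not used. Here foreground and background intensities were corrected by normexp (offset 50) and loess-normalized within each array with control spots at weight 0, spots of one probe were averaged, and limma 3.58.1 in R 4.3.3 was run over 1856 probes. The scripts were tested on simulated data. The Z ratio was taken from background-corrected channels. Samples of one number share an array, and their deviations correlated at 0.95, so ratios within arrays were tested. Members and lists were chosen with earlier results of these data known. Named list genes were those called by Z ratio and the 2 largest per list. CDH3, CDH17, ANGPT2 and SMAD3 were named after their values were seen. Only 2 arrays limit the precision, and whether cultures were separate rests on the series' text, so p-values measure the spread between these arrays.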

Additional observations from a re-analysis of the deposited data

How the results depend on the processing

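Member probes called by Z ratio numbered 2 to 4 under the alternatives that could move them (3 as reported). Median centring and no normalization leave the Z ratio as it is by construction. With a replicate left out, where no limma test was possible, they numbered 3 to 4. The share of all probes called was 10.2% to 13.2% under these alternatives. Members past limma's adjusted test numbered 0 as reported, where 0% of all probes passed. They numbered 4 without background correction (23.3% of all probes), 4 with plain subtraction (20.4%) and 4 with the deposited net intensities (29.6%). Those net intensities were not plain foreground minus background in the rhLRG1 channel. With the 2 bright-background spots left out, members past the adjusted test numbered 4 (21.8%), and without normalization 2 (27.1%). The first spot only gave 1, which was SPOCK1 (0.0539%), and duplicate spots kept apart gave 1 (10.9%). The fit with no replicate block, which ignores the pairing on arrays, passed 0 members and 0 of 1856 probes (21 at an unadjusted p of 0.05). Signs turned for the CDH2 probe NM_001792 with median centring (0.24) and net intensities (0.015), and for CDH13 without normalization (−0.017). VIM turned with plain subtraction (0.014), median centring (0.0023), print-tip loess (0.039), net intensities (0.097), the first spot only (0.0084) and the 2 spots left out (0.0058). Z ratio calls were lost for the CDH2 probe X54315 with subtraction (1.42) and net intensities (1.41), for CDH13 under print-tip loess (0.51) and from channels normalized by loess (1.30), and for SPOCK1 on its second spot (−0.89). CDH5 was called with subtraction (−2.41), net intensities (−1.89) and without replicate 3 (−1.59). Among the list genes, net intensities took the calls of CD3G (0.86), LEF1 (1.03) and SPP1 (1.26). They called PCDH7 (2.05), CDH17 (1.97), CDH11 (1.69) and ANGPT2 (2.18) higher. The causes were not tested.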
